A study of Mus musculus with 20 samples.

Results

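The genes described here are 50 genes of G2 and mitosis, the phases in which a cell checks its copied DNA, builds a spindle and divides. They were given as a list of names drawn up with earlier results of these data known, with no measured value in its rule, and all 50 were found among the 49997 genes of the deposited count tables and tested in every fit. RNA with poly(A) tails was sequenced from cultured mouse bone marrow cells of 2 sorted populations. HSC were Kit-positive, Sca1-positive, lineage-negative cells that carried CD201 and CD150, the surface phenotype of haematopoietic stem cells. HPC were Kit-positive, Sca1-positive, lineage-negative cells without CD201 and CD150, a progenitor phenotype. In each population 3 libraries came from wild-type cells (WT), 3 from cells with a heterozygous knockout of Runx2 (het) and 3 from cells with a homozygous one (hom), which makes 6 groups. Runx2 encodes a RUNX family transcription factor. The series design names floxed mice or CRISPR as the source of the knockout in HSC without assigning either to a library. No source used here gives the Cre line, the age of the animals or the days in culture. The labels do not say whether the replicates are separate animals or cultures, so the p-values measure the spread between these libraries, which may be technical.

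The 18 libraries held 16663497 to 27061457 counts assigned to genes, at which 3 counts equal 0.111 to 0.18 CPM (counts scaled to 1e+06 per library). Runx2 followed the labels, with 126, 133 and 130.4 CPM in HSC WT, 90.0, 96.0 and 87.6 in het and 27.5, 30.4 and 26.7 in hom, and in HPC 112, 120.1 and 119, 98.7, 100.3 and 92.0 and 21.9, 20.9 and 23.0 in the same order. Kit, Ptprc, Procr and Slamf1 were detected in both populations. Of these sort markers, Procr and Slamf1 were lower in HPC WT than in HSC WT and the other 2 did not pass (edgeR, adjusted p under 0.05). Ly6a, which encodes the sort antigen Sca1, was listed at 0 in all 18 libraries, as were Rrm2 and Anapc11, genes that dividing cells use, so these entries were not read as absence. Every HSC library held the Y-linked Ddx3y (121 to 167 CPM), whereas in HPC that gene stood at 0 throughout and Xist at 2539 to 4475 CPM. Population, deposited table and donor sex therefore cannot be told apart.

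The order of division is set by regulators that act in sequence. Cyclin A and cyclin B bind the kinase Cdk1, the phosphatases Cdc25b and Cdc25c switch that kinase on, and Plk1 and the Aurora kinases carry the signal to centrosomes, chromosomes and kinetochores. The spindle checkpoint then holds back the anaphase-promoting complex (APC/C) until every chromosome is attached, after which cyclin B and securin are destroyed and the cytokinesis machinery separates the daughter cells. Most of these genes are transcribed in G2, when B-MYB and FOXM1 join the MuvB complex at short promoter elements called CHR (TTTGAA or TTTAAA) beside CCAAT boxes bound by NF-Y, and most are low in resting cells. Blood stem cells in the marrow are mostly quiescent, whereas cells expanding in culture divide.

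Promoters from RefSeq (GRCm38.p6), each 300 bases long with 250 before the start and 50 after it, were found for 40 of the 50 genes in 43 windows. No window was used for Ccna2, Cdc25c, Foxm1, Tpx2, Aurkb, Incenp, Spc24, Dlgap5, Kif20a or Smc4. TTTGAA, read on both strands, occurred in 79.1% of the windows of these genes and in 17.9% of all 32851 windows of the same length. TTTAAA occurred in 20.9% against 13.2%, either CHR spelling in 86.0% against 27.6%, and CCAAT in 79.1% against 37.4%. TGTGGT, the core letters of the RUNX motif, occurred in 11.6% against 16.8% and was found in Plk1, Kif11, Kif2c and Ect2. All motifs were read on both strands, matches of different motifs may share bases at their ends, and a match describes the letters and not a binding site.

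The 6 genes below are those with a promoter in the table that had the smallest adjusted p among the genes lower in HSC hom than in WT, a comparison described further on. The 250 bases before the start are shown 5′ to 3′ on the strand of the gene. Capitals mark matches on either strand to the CHR spellings, the CCAAT box and TGTGGT.
Ccnb1 (chr13:100786487-100786736, minus strand): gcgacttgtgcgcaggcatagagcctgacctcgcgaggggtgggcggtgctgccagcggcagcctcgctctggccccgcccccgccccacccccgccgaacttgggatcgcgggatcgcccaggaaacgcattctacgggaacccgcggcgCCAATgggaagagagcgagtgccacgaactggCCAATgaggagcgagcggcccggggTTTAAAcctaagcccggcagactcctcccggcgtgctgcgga
Nusap1 (chr2:119618048-119618297, plus strand): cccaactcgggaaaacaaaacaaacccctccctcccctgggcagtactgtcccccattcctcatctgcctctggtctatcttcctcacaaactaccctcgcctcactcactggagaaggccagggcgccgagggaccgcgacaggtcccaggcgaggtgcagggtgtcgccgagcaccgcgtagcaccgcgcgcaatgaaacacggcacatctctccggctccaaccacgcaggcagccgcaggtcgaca
Nuf2 (chr1:169531465-169531714, minus strand): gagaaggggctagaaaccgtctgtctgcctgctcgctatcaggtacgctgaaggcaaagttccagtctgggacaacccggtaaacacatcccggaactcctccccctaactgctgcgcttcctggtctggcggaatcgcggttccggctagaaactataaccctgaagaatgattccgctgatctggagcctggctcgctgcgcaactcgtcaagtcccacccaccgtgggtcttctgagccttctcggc
Ckap2 (chr8:22185820-22186069, minus strand): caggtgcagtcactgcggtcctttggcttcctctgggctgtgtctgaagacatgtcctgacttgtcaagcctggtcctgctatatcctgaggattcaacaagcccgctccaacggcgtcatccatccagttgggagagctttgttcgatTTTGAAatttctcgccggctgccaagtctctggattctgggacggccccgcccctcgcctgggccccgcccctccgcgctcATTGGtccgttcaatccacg
Prc1 (chr7:80294201-80294450, plus strand): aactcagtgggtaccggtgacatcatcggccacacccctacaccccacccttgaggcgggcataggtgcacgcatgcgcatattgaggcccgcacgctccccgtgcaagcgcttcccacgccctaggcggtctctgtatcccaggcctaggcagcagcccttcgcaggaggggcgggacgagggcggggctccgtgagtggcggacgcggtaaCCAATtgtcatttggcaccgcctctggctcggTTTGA
Smc2 (chr4:52438971-52439220, plus strand): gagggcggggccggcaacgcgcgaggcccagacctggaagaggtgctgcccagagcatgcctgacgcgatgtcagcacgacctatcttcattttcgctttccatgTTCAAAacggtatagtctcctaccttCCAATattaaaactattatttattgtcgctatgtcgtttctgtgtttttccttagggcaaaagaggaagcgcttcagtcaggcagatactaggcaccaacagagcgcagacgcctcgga
Ccnb1 carries 2 CCAAT boxes followed by TTTAAA. Ckap2, Prc1 and Smc2 each show a TTTGAA element, which in Smc2 is on the opposite strand (TTCAAA) and in Prc1 runs over the start, so that its last base is not shown. Ckap2 (on the opposite strand), Prc1 and Smc2 also hold a CCAAT box. Nusap1 and Nuf2 hold none of these letters in the window. Among the 8 called genes with a promoter, 6 held a CHR spelling (75%), against 34 of all 40 genes (85.0%).

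The level per transcript length, as TPM (counts divided by gene length and scaled to a fixed total per library), ranged over more than an order of magnitude in WT cells. Top2a, the topoisomerase that untangles sister chromatids, was highest in all 6 groups, at 342 ± 19.3 TPM in HSC WT and 395 ± 18.1 in HPC WT (SD, n = 3). Ube2c, the ubiquitin-conjugating enzyme of the APC/C, was next in HSC WT at 212 ± 9.09 TPM, followed by the proliferation antigen Mki67 at 171 ± 5.14. The median gene stood at 63.7 TPM in HSC WT and 53.3 in HPC WT. At the low end were Kif20a, a kinesin of the midzone, at 13.2 ± 1.57 TPM in HSC WT, the chromokinesin Kif4 at 15.1 ± 0.85, securin (Pttg1) at 18.8 ± 0.511 and the phosphatase Cdc25c at 18.9 ± 2.73. Of the 49 pairs of neighbours in this order, the 3 libraries of one gene lay wholly above those of the next for 10 pairs in HSC WT and 5 in HPC WT. Counting left out reads in shared exons, so the levels of Kif20a (66.4% of exonic bases shared with Brd8 and Cdc23), Prc1 (22.7%, Rccd1), Ncapg (20.1%, Lcorl), Ccna2 (11.2%, Exosc9), Aurka (9.49%, Cstf1) and Nusap1 (6.82%, Oip5) are uncertain, as is that of Kif11, which has an annotated copy on another contig.

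**Figure D1:**
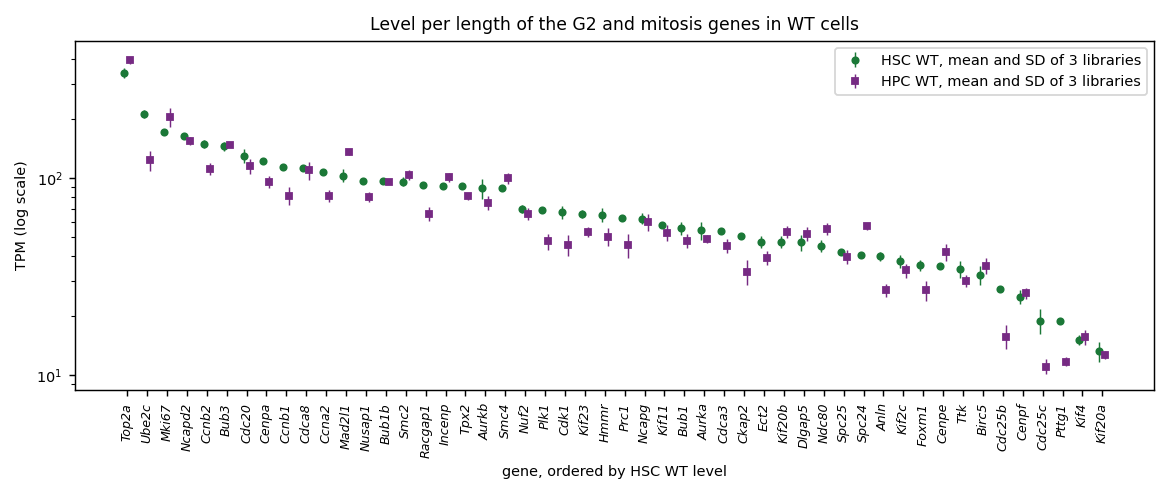
Level per length (TPM, log scale) of each of the 50 genes in WT cells, ordered by the HSC WT mean, with circles for HSC and squares for HPC and bars for the SD of 3 libraries. Top2a is highest in both populations, and Kif20a, Kif4, Pttg1 and Cdc25c lie at the low end.

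In HSC, genes of mitotic entry, spindle and chromosome condensation were lower in hom than in WT. Of the 50 genes, 10 passed the test, all of them lower: cyclin B1 (Ccnb1), Nusap1, cyclin A2 (Ccna2), Nuf2, Ckap2, Prc1, Smc2, Smc4, Kif11 and Cdk1. Of all 14959 genes tested in HSC, 0.802% were called lower, 1.2% higher and 2.01% in either direction (edgeR quasi-likelihood test, Benjamini-Hochberg adjusted p under 0.05 over all genes tested). The change was small, with a median log2 fold change of -0.23 over the 50 genes beside 0.00 over all genes tested, and 48 of the 50 values were below 0 (49.6% of all genes). In 36 genes all 3 hom libraries lay below all 3 WT libraries (12% of all genes), and 32 were lower and 0 higher at an unadjusted p under 0.05 (8.86% and 9.59% of all genes). Summed T cell and erythroid markers were also lower in hom, with values given at the end, and their part in the result was not tested. In bulk RNA, fewer cells in G2 and mitosis and less of these RNAs per cell cannot be told apart.

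Among the entry genes, Ccnb1, which encodes the cyclin that drives Cdk1 into mitosis, stood at 100.5, 100.4 and 100.0 CPM in the 3 WT libraries, 83.9, 85.7 and 92.1 in het and 70.2, 75.2 and 73.1 in hom. All hom libraries lay below all het libraries, which in turn lay below all WT libraries, and hom differed from WT by -0.46 ± 0.07 on the log2 scale (SE; edgeR adjusted p = 0.00419), that is, 72.6% of the WT level. Ccna2, the cyclin of S phase and G2, stood at 141, 133 and 137 CPM in WT and 105, 111 and 105 in hom (-0.36 ± 0.06, adjusted p = 0.0116). For Cdk1, the kinase both cyclins bind, the libraries gave 106, 119 and 106 CPM in WT and 88.6, 91.4 and 90.9 in hom (-0.29 ± 0.07, adjusted p = 0.0459). The remaining 5 genes of this group, Ccnb2, Cdc25b, Cdc25c, Plk1 and Foxm1, did not pass, with values from -0.20 to -0.03. Foxm1, the transcription factor of the G2 programme, was the flattest of them at 63.8, 57.6 and 57.0 CPM in WT and 62.5, 57.1 and 54.5 in hom.

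Spindle genes held 3 of the 10 calls. Nusap1, a binder of spindle microtubules near chromosomes, stood at 116, 107 and 112 CPM in WT and 84.3, 82.0 and 87.1 in hom, with no overlap (-0.41 ± 0.07, adjusted p = 0.00882). Ckap2, a microtubule nucleator, had 56.2, 54.4 and 57.4 CPM in WT and 40.2, 47.6 and 42.9 in hom (-0.36 ± 0.08, adjusted p = 0.0386). Kif11, the motor that pushes the spindle poles apart, had 216, 201 and 220.3 and 163, 173 and 184 (-0.29 ± 0.07, adjusted p = 0.0409). Hmmr, a spindle assembly factor, had a fold change close to that of Ckap2 but more spread, with 90.0, 95.9 and 107 CPM in WT and 65.8, 76.2 and 86.1 in hom, and did not pass (-0.36 ± 0.09, adjusted p = 0.0653).

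The kinetochore genes were uneven. Nuf2, a subunit of the NDC80 complex that grips microtubules, stood at 64.8, 68.3 and 63.5 CPM in WT and 51.7, 49.6 and 46.3 in hom (-0.41 ± 0.08, adjusted p = 0.0245). Its partners did not pass, with -0.36 ± 0.11 for Spc25, -0.17 ± 0.10 for Ndc80 and 0.11 ± 0.18 for Spc24. The hom libraries of Spc24 spread over 36.2, 25.9 and 18.3 CPM, around WT values of 25.4, 23.9 and 24.9, and without hom replicate 1 the difference was -0.16. None of the 6 genes of the Aurora kinases and the chromosomal passenger complex, of the 5 checkpoint genes or of the 4 genes of anaphase degradation passed, although 9 of these 15 had an unadjusted p under 0.05, all lower.

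Cytokinesis genes showed the same sign throughout, with all 7 below 0 and without overlap between hom and WT, but Prc1 alone passed. Prc1, which bundles the antiparallel microtubules of the midzone, stood at 81.9, 79.8 and 80.3 CPM in WT and 60.3, 67.3 and 66.2 in hom (-0.32 ± 0.07, adjusted p = 0.0398). In the condensin complex the core subunits passed. Smc2 had 203, 207 and 193 CPM in WT and 171, 162 and 164 in hom (-0.28 ± 0.06, adjusted p = 0.0403), and Smc4 had 361, 353 and 345 and 274, 286 and 305 (-0.29 ± 0.07, adjusted p = 0.0405). Ncapd2, a non-SMC subunit of condensin, was nearly level at 354, 334 and 334 CPM in WT and 368, 336 and 325 in hom (0.01 ± 0.07).

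The calls in HSC hom depended on single libraries. With 1 library left out, the count was 1 without WT replicate 1, 2 without WT replicate 2, WT replicate 3 or hom replicate 2, and 9 and 11 without hom replicates 1 and 3, and Ccnb1 was the one gene called in all 6 of these fits. DESeq2 called 17, a fit of all 18 libraries 23, a fit of the 6 libraries compared 4, and scaling to library size alone 5, all lower.

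**Figure D2:**
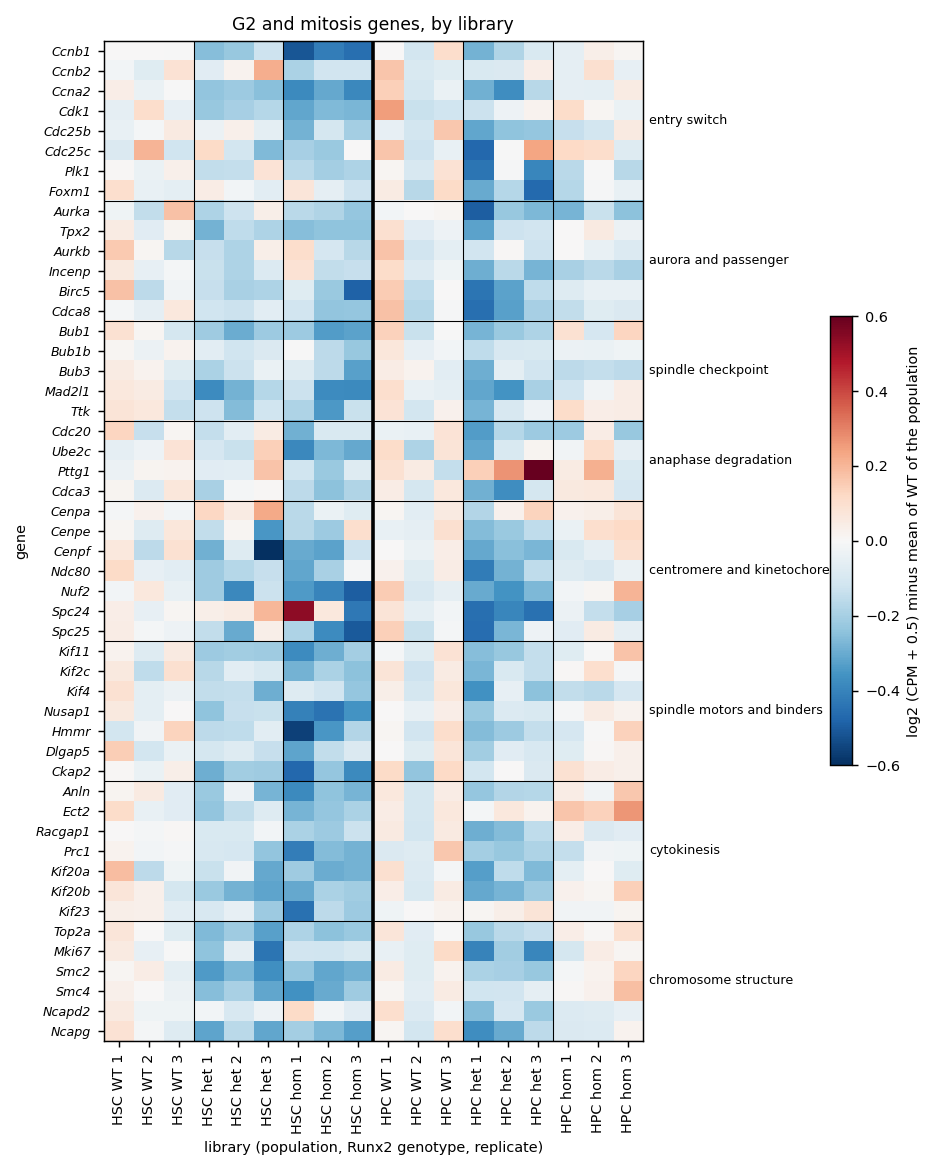
Log2 of CPM plus 0.5 for each gene (rows, by role) and library (columns), minus the mean of the 3 WT libraries of the same population. Colours end at 0.6 in either direction, blue is below WT, and the HSC hom and HPC het columns hold mostly blue cells while the HPC hom columns are close to white.

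In HSC het, 0 of the 50 genes passed against WT and 0 passed between hom and het. Among all genes edgeR called 0.00668% lower and 0.0267% higher in het against WT (0.0334% in either direction), and 0.00668% each way in hom against het (0.0134%). DESeq2 called 5 members lower in het than in WT and 0 in hom against het. At an unadjusted p under 0.05, 19 genes were lower and 0 higher in het than in WT (6.72% and 7.1% of all genes), and 7 were lower and 0 higher in hom than in het (6.04% and 5.68%). The het median was -0.15, with 46 values below 0 (48.5% of all genes), and the largest difference was that of Smc2, at 159, 167 and 156 CPM in het (-0.33 ± 0.06, adjusted p = 0.117). In 24 genes the het libraries lay wholly below WT and in 1, Cenpa, above (11.6% and 11.4% of all genes), and between hom and het 14 genes lay wholly lower and 0 higher in hom (8.57% and 7.45%). Means ran in the order WT, het, hom for 35 of the 50 genes, and hom was the lowest for 38, counts that were not made over all genes. By role, the chromosome structure genes were at a median of -0.26 in het and -0.24 in hom, whereas the entry genes were at -0.08 in het and -0.19 in hom. These differences between het and hom did not pass for any single gene, and the smallest p were those of Ccnb1 (-0.26 ± 0.07, adjusted p = 0.179) and Ube2c (-0.30 ± 0.09, adjusted p = 0.21).

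In HPC, het libraries were low in these genes and hom libraries were near WT. Against WT, 22 of 50 genes were lower and 1 was higher in HPC het, beside 6.99% and 9.15% of all 13855 genes tested. The median log2 fold change was -0.21 beside 0.00 over all genes, 46 values were below 0 (50.8% of all genes), and in 30 genes the het libraries lay wholly below WT (16.2% of all genes). Het had the lowest mean of the 3 genotypes for 47 of the 50 genes, a count that was not made over all genes. In the same libraries 8 of 8 monocyte markers rose and 4 of 8 megakaryocyte and 3 of 7 erythroid markers fell, with values given at the end, and their part in the result was not tested.

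Kinetochore genes made up 5 of the 22. Spc24, the NDC80 subunit that anchors the complex to the kinetochore, stood at 35.7, 32.4 and 33.5 CPM in WT, 24.6, 25.7 and 24.7 in het and 33.0, 30.6 and 29.4 in hom. It was the largest fall among the 22 (-0.44 ± 0.08, edgeR adjusted p = 0.000564), and all het libraries lay below all WT and all hom libraries. Cenpf, a large protein of the outer kinetochore, had 109, 106 and 112 CPM in WT and 88.0, 91.5 and 89.9 in het (-0.28 ± 0.06, adjusted p = 0.00368). For Nuf2 the libraries gave 66.8, 56.1 and 57.7 in WT, 48.5, 46.6 and 49.7 in het and 59.3, 60.6 and 69.3 in hom (-0.32 ± 0.08 for het, adjusted p = 0.00882). Ndc80 (45.6, 42.5 and 46.2 CPM in WT, 33.3, 36.6 and 40.1 in het) and the motor Cenpe (-0.21 ± 0.06) also fell, while the fourth NDC80 subunit, Spc25, did not pass (-0.25 ± 0.10, adjusted p = 0.115) and the centromeric histone Cenpa was level (0.00 ± 0.07).

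Of the chromosome structure genes, 4 of 6 fell. Mki67, which coats mitotic chromosomes, stood at 739.9, 724 and 826 CPM in WT, 577, 659 and 581 in het and 709, 785 and 767 in hom (-0.33 ± 0.07 for het, adjusted p = 0.00345). The het values lay below both other groups. Ncapg, a condensin I subunit, had 85.2, 78.2 and 90.5 CPM in WT and 65.2, 68.5 and 75.7 in het (-0.28 ± 0.07, adjusted p = 0.0107), and Smc2 (-0.21 ± 0.06) and Ncapd2 (-0.20 ± 0.06) fell as well.

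Of the Aurora and passenger genes, 4 of 6 fell. Aurka, the Aurora kinase of the spindle poles, stood at 40.1, 40.7 and 40.8 CPM in WT and 28.6, 34.5 and 33.5 in het (-0.33 ± 0.08, adjusted p = 0.00695). Its hom libraries, at 33.4, 36.9 and 34.1 CPM, overlapped those of het. Borealin (Cdca8), Incenp and survivin (Birc5), subunits of the passenger complex, had -0.33 ± 0.08, -0.25 ± 0.06 and -0.31 ± 0.09. Cdca8 stood at 74.2, 58.2 and 65.3 CPM in WT and 47.8, 52.3 and 57.1 in het, and Incenp at 131, 114 and 119 and 98.7, 108 and 99.7. The kinase of that complex, Aurkb, did not pass (-0.08 ± 0.07, adjusted p = 0.52).

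Mad2l1, the checkpoint protein that captures Cdc20, stood at 112, 101 and 100.4 CPM in WT and 84.1, 81.5 and 91.2 in het (-0.29 ± 0.07, adjusted p = 0.00541), and the checkpoint kinase Bub1 fell by less (-0.23 ± 0.08). Among the entry genes, Ccna2 (112, 93.8 and 98.3 CPM in WT, 82.4, 77.7 and 89.8 in het, -0.28 ± 0.07) and Foxm1 (-0.32 ± 0.09) fell. Cdk1 and Ccnb2 were close to WT, at -0.06 ± 0.09 and -0.05 ± 0.08, and Ccnb1 did not pass (-0.19 ± 0.07, adjusted p = 0.0777). Kif20b, a kinesin of late cytokinesis, had 120.1, 109.8 and 121 CPM in WT, 94.4, 96.2 and 101 in het and 119, 118 and 129 in hom (-0.27 ± 0.06 for het, adjusted p = 0.00537). Racgap1 (-0.24 ± 0.07) and Kif11 (-0.21 ± 0.07) were the remaining falls outside anaphase degradation.

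In anaphase degradation the genes parted. Cdc20, the activator of the APC/C, and Cdca3, which promotes mitotic entry, fell (-0.24 ± 0.08 and -0.26 ± 0.08), while Pttg1, which encodes securin, the inhibitor of the enzyme that cuts cohesin, rose. Pttg1 stood at 13.2, 12.8 and 11.2 CPM in WT, 13.7, 15.0 and 19.9 in het and 12.8, 14.4 and 11.6 in hom (0.39 ± 0.13, adjusted p = 0.0472). The call was made in 1 of the 6 fits that left out a library, the one without het replicate 1, and without het replicate 3 the difference was 0.20. DESeq2 did not call it.

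Leaving out HPC het replicate 1, WT replicate 1 or WT replicate 3 lowered the count from 23 to 9, 10 or 10, and the fit of all 18 libraries gave 13. Aurka, Cenpf, Kif20b, Mad2l1, Mki67 and Spc24 were called in all 6 fits without a library.

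**Figure D3:**
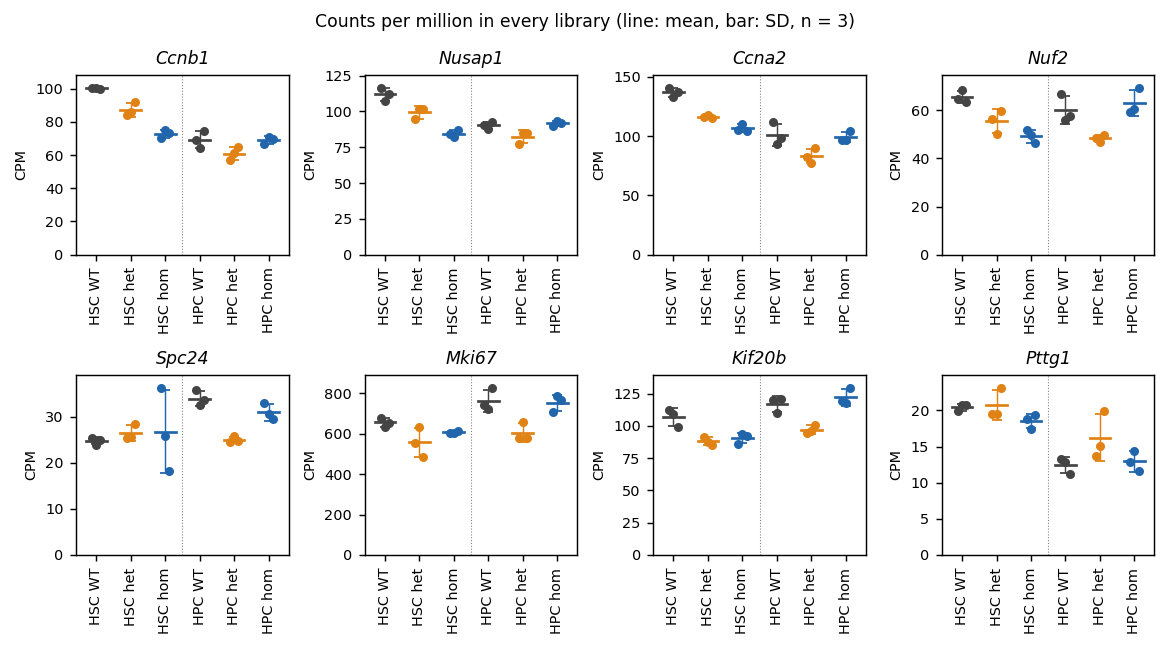
CPM of 8 genes in every library, with a line at the mean and a bar for the SD of 3 libraries in each group. Ccnb1, Nusap1, Ccna2 and Nuf2 are lowest in hom among the HSC groups, Spc24, Mki67 and Kif20b are lowest in het among the HPC groups, and Pttg1 is highest in het among the HPC groups.

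Between HPC hom and HPC het, 13 of 50 genes were higher in hom and 0 lower (3.63% and 5.77% of all genes, and 9.4% in either direction). They were Kif20b (0.33 ± 0.06, edgeR adjusted p = 0.00233), Nuf2 (0.39 ± 0.08, adjusted p = 0.00426), Mki67, Cenpf, Cenpe, Smc2, Spc24, Mad2l1, Anln, Top2a, Kif11, Bub1 and Ccna2. Anln, the scaffold of the contractile ring, was at 52.5, 54.8 and 54.9 CPM in het and 63.7, 60.9 and 69.3 in hom (0.26 ± 0.07, adjusted p = 0.0234), and Top2a at 651, 681 and 692 and 784, 767 and 816 (0.22 ± 0.06, adjusted p = 0.0266). In 34 genes the hom libraries lay wholly above het (12.7% of all genes), and the median difference was 0.20. This comparison shares the het libraries with that of het against WT. The count was 4 without het replicate 1, 7 without het replicate 2 and 8 without hom replicate 3, and 7 in the fit of all 18 libraries.

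In HPC hom against WT 0 of the 50 genes passed in edgeR or DESeq2, while 4.29% of all genes were lower and 4.92% higher in edgeR (9.21% in either direction). At an unadjusted p under 0.05, 3 were lower (10.6% of all genes) and 1 higher (11%). The median was -0.01 and 28 values were below 0. The nearest to the threshold were Incenp (-0.19 ± 0.06, adjusted p = 0.0722) and Ect2, the exchange factor that starts the cleavage furrow (0.19 ± 0.06, adjusted p = 0.0723). Ccnb1, the leading gene in HSC hom, stood at 69.3, 64.2 and 74.6 CPM in HPC WT and 66.7, 71.0 and 69.7 in HPC hom (0.00 ± 0.07).

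**Figure D4:**
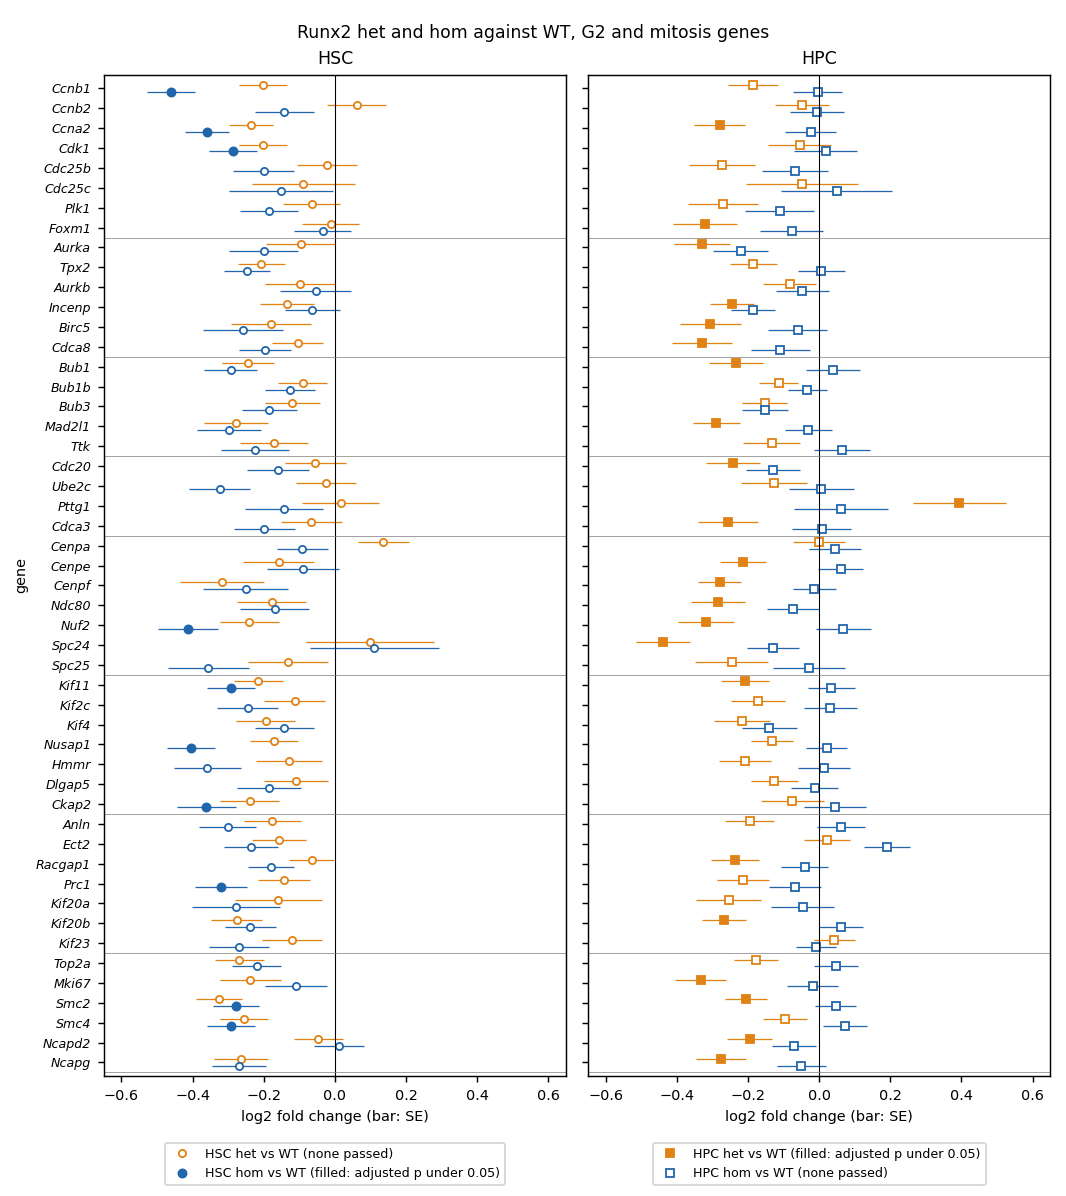
Log2 fold change against WT with its SE for each gene, het in orange and hom in blue, with HSC on the left and HPC on the right and filled symbols for an adjusted p under 0.05. In HSC the 10 filled symbols belong to hom, and in HPC the 23 filled symbols belong to het, of which Pttg1 alone is above 0.

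The difference in the hom effect between the populations was tested in the fit of all 18 libraries. Donor sex and deposited table differ along with population, so their parts in this difference cannot be told apart. It passed for 8 of 50 genes, each with a lower value in HSC (1.73% of all 15431 genes lower, 2.79% in either direction): Nusap1, Ccnb1, Ect2, Smc4, Nuf2, Smc2, Ccna2 and Anln. Nusap1 differed by -0.45 ± 0.09 (edgeR adjusted p = 0.00774) and Ccnb1 by -0.48 ± 0.10 (adjusted p = 0.00975), and these were called in all 12 fits that left out a library. Nuf2 fell in HSC hom and was above WT on average in HPC hom (-0.41 ± 0.08 and 0.07 ± 0.08), a difference of -0.50 ± 0.12 (adjusted p = 0.0247). Ect2 passed in neither population alone, with 88.9, 79.9 and 78.4 CPM in HSC WT, 67.7, 70.0 and 72.1 in HSC hom, 68.6, 61.6 and 69.4 in HPC WT and 74.7, 73.2 and 80.0 in HPC hom (-0.45 ± 0.10 for the difference, adjusted p = 0.0173). The count ranged from 2 to 11 with a library left out, being 2 without HPC WT replicate 2 or HPC hom replicate 3 and 3 without HSC WT replicate 1, HSC WT replicate 2, HSC hom replicate 2 or HPC WT replicate 3. DESeq2 called 13 and library size alone gave 4.

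The difference in the het effect passed for 0 of 50 genes in edgeR and in DESeq2 (1.94% of all genes in edgeR), with 1 lower and 2 higher at an unadjusted p under 0.05 (7.36% and 5.51% of all genes). The genes called in HPC het are thus not shown to differ from their values in HSC het. Between HSC hom and HPC het, which share no library, 4 falls were in common, Ccna2, Kif11, Nuf2 and Smc2, or 40% of the 10 and 18.2% of the 22. Of all 50 genes, 44% fell in HPC het and 20% in HSC hom, so the shared part is near the share of the whole list. Across the 50 genes these 2 sets of fold changes had a Pearson r of -0.04, as a description over genes that are not independent. By the same measure r was -0.38 between HSC hom and HPC hom and 0.23 between HSC het and HPC het.

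In WT cells, HPC held less of all 8 entry genes than HSC and, with TMM scaling, more of 4 of 6 chromosome structure genes. Altogether 16 of the 50 genes were lower and 15 higher in HPC (27.7% and 27.2% of all genes), which is near the 54.9% of all genes called in either direction. The entry genes were led by Cdc25b, the phosphatase that first activates Cdk1, with -0.65 ± 0.09 (edgeR adjusted p = 1.31e-06), and Cdc25c with -0.61 ± 0.16. Ube2c (-0.63 ± 0.09, adjusted p = 7.25e-06) and Pttg1 (-0.53 ± 0.13) were lower too. Mad2l1 (0.56 ± 0.08, adjusted p = 4.5e-06), Spc24 (0.65 ± 0.14), Ndc80 (0.44 ± 0.09), Mki67 (0.41 ± 0.08), Top2a (0.37 ± 0.06), Smc4 (0.32 ± 0.06) and Smc2 (0.27 ± 0.06) were higher. The fit scaled the populations by TMM factors over all 18 libraries, whereas the CPM printed here are scaled within each population, so a ratio of CPM across populations differs from these folds. With library size alone, which shifted the median of all genes from -0.03 to -0.21, 24 members were lower and 5 higher, all 8 entry genes stayed lower, Bub1b, Bub3 and Cdca8 turned below 0, and Smc2 and Smc4 no longer passed.

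Other genes of the same processes were read from lists apart from the 50. Of 56 other mitosis genes, 0 passed in HSC hom (median -0.19; 23 lower at an unadjusted p under 0.05) and 24 fell in HPC het (median -0.25), led by Trip13, the ATPase that resets Mad2 (-0.43 ± 0.08, edgeR adjusted p = 0.00127), Bora, the activator of Aurora A (-0.33 ± 0.06), Ckap2l (-0.39 ± 0.08) and the condensin II subunit Ncapg2 (-0.26 ± 0.06). In HPC hom against het 15 of them were higher and 1, Psrc1, lower, and in HPC hom against WT 0 passed. Of 15 tested APC/C subunits and Cdh1, 0 passed in HSC hom and Cdc23 alone fell in HPC het (-0.21 ± 0.06). Among 23 regulators of this transcription, Nfyb, a subunit of NF-Y, fell in HSC hom from 39.7, 40.9 and 40.3 to 32.6, 31.4 and 31.7 CPM (-0.34 ± 0.08, adjusted p = 0.0471). In HPC het the repressors E2f7 (-0.49 ± 0.09) and E2f8 (-0.35 ± 0.07), with Rbl1 and E2f4 of the DREAM complex (-0.23 ± 0.06 and -0.24 ± 0.08), fell. E2f7 also fell in HPC hom against WT (-0.36 ± 0.09, adjusted p = 0.0136).

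S phase genes, which act just before the 50, had no common level across the HSC hom libraries. Of 35 tested, 0 passed there (3 lower at an unadjusted p under 0.05) and the median was -0.06, while the library medians relative to WT were 0.17, -0.09 and -0.30 in hom replicates 1, 2 and 3. The library medians of the 50 genes in those replicates were -0.21, -0.23 and -0.22. In HSC het 0 S phase genes passed but all 35 values were below 0, with a median of -0.22. In HPC het 7 fell, led by Tyms, which makes thymidylate for DNA copying (54.6, 44.3 and 45.4 CPM in WT, 35.6, 35.1 and 36.3 in het, -0.43 ± 0.08, edgeR adjusted p = 0.00119), with a median of -0.17. HPC WT replicate 1 stood above the other WT libraries in this list, at 0.17 against -0.07 and -0.10. Of 10 CDK inhibitors and p53 targets, 0 passed in HSC hom, and Sesn1 (0.57 ± 0.07), Btg2 (0.34 ± 0.06) and the inhibitor p27 (Cdkn1b, 0.29 ± 0.09) rose in HPC het. In HPC hom against WT, Sesn1 rose as well (0.32 ± 0.07, adjusted p = 0.00344), the inhibitors p57 (Cdkn1c, -0.70 ± 0.16) and p21 (Cdkn1a, -0.23 ± 0.06) fell, and of the S phase genes Pold1, a subunit of DNA polymerase delta, fell (-0.30 ± 0.08, and -0.30 ± 0.08 in het).

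**Figure D5:**
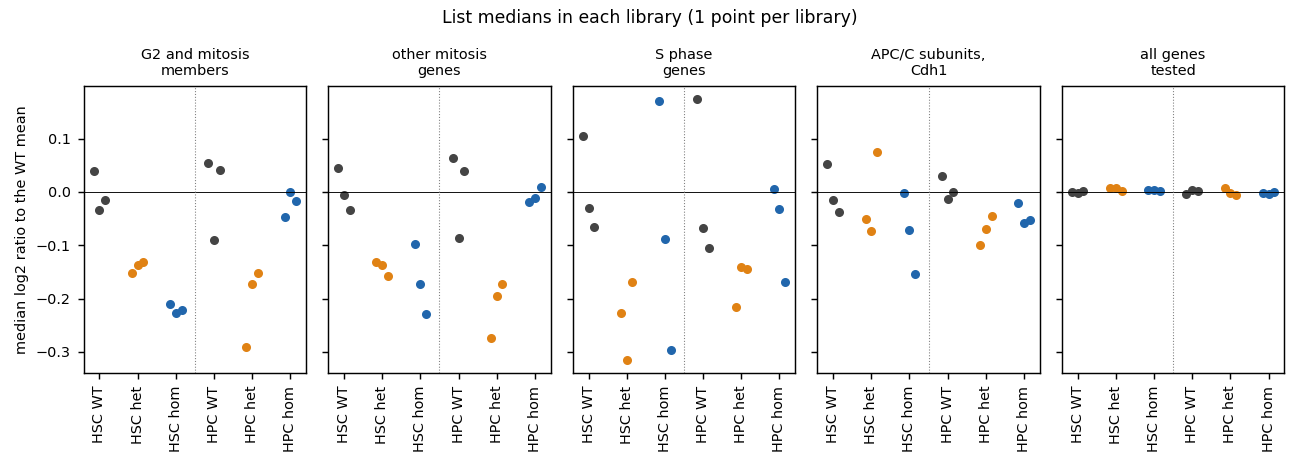
Median log2 ratio to the WT mean in each library (1 point per library) for the 50 genes, for lists of related genes and for all genes tested. The points of the 50 genes lie at -0.21 to -0.23 in HSC hom and at -0.15 to -0.29 in HPC het, the S phase points of HSC hom spread from -0.30 to 0.17, and all genes stay at 0.

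Markers of other blood cells moved with the genotype in HPC. In het, all 8 monocyte markers rose, from a summed 338 to 386 CPM in WT to 663 to 678, and 4 of 10 neutrophil granule genes rose (1547 to 1642 CPM in WT, 1918 to 2313 in het). Megakaryocyte markers fell for 4 of 8 (611 to 676 CPM in WT, 374 to 464 in het), erythroid markers for 3 of 7 (176 to 189 and 133 to 169 CPM), and of 6 mast cell and basophil markers 2 fell and 2 rose (295 to 332 and 228 to 247 CPM). Of the 4 tested T cell markers Thy1 and Lck fell and Cd28 rose, the one tested B cell marker, Cd79b, rose, and of the sort markers Slamf1 fell while Kit and Ptprc rose.

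Marker lists also differed between HPC hom and het, the comparison in which 13 of the 50 genes were higher in hom. The part of these markers in that result was not tested. Between hom and het, 4 of 7 erythroid markers were higher (median 0.72; 141 to 168 CPM in hom), 2 of 8 megakaryocyte markers were higher and 1 lower (median 1.11, 6 higher at an unadjusted p under 0.05; 423 to 592 CPM in hom), and 5 of 6 mast cell and basophil markers were higher (290 to 318 CPM in hom). Neutrophil granule genes were higher for 7 of 10 (2547 to 2710 CPM in hom), and monocyte markers were higher for 2 and lower for 2 of 8 (655 to 733 CPM in hom). In het the sums were 133 to 169 CPM for erythroid, 374 to 464 for megakaryocyte and 663 to 678 for monocyte markers, each overlapping hom. The het sums of mast cell and basophil markers (228 to 247 CPM) and neutrophil granule genes (1918 to 2313 CPM) lay below those of hom. Slamf1 was higher and Tcf7 lower in hom than in het. Against WT, hom had 8 of 8 monocyte and 8 of 10 neutrophil markers higher, Thy1, Tcf7, Lck and Slamf1 lower and Cd28 higher, 2 of 8 megakaryocyte markers lower, 1 of 7 erythroid markers lower and 1 higher, and 2 of 6 mast cell and basophil markers lower and 3 higher.

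In HSC hom, the marker genes called were Ccr2, Hemgn, Tcf7 and Thy1, all lower. The 4 tested T cell markers summed to 61.5 to 74.7 CPM in WT and 40.6 to 50.4 in hom, without overlap. The 3 tested erythroid markers summed to 172 to 202 and 147 to 166, also without overlap. The 6 tested monocyte markers summed to 176 to 193 and 170 to 186. The library medians of the megakaryocyte markers were -0.03 to 0.06 in WT and 0.19 to 0.40 in hom, with 0 of 7 called (3 higher at an unadjusted p under 0.05). Their summed CPM overlapped, at 597 to 622 in WT and 544 to 652 in hom. Cd3e, Cd3d, Cd3g and Bcl11b of T cells and Pax5, Ebf1, Cd79a, Igll1 and Ms4a1 of B cells were under 0.5 CPM in all 18 libraries. The part of these marker differences in the values of the 50 genes was not tested.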

How the data were processed

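Raw gene counts were taken as the authors deposited them, 1 table per population. Per the file headers they came from featureCounts 2.0.6 in paired, unstranded mode with the exons of each gene in an mm10 annotation, and per the submitters' processing notes from Trim Galore 0.6.10, STAR 2.7.11a and an mm39 build. The tables' coordinates are those of mm10. The CUT&Tag samples were not analysed here. The members, lists and naming rule were chosen with earlier results of these data known.

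Counts were tested with edgeR 4.0.16 in R 4.3.3 (robust quasi-likelihood fit, TMM, filterByExpr, Benjamini-Hochberg adjustment over all genes tested), with 1 fit of 9 libraries per population for the genotypes and 1 of all 18 for differences between populations. Adjusted p under 0.05 is the threshold for a call, and "rose" and "fell" are used for called genes. CPM use the TMM factors of the population's fit, TPM the table's gene lengths, and library ratios a pseudocount of 0.5 CPM. Values after ± are SD for levels and SE for log2 differences. The script was tested on simulated data. Depth per library was 16663497 to 27061457 counts, and floors of 3 counts cover counting error only. No libraries of a group agreed within sampling noise. The rule for named genes took up to 12 called members by p for each comparison and direction, up to 4 uncalled ones by fold change, and up to 4 called genes of each other list. Alternatives were DESeq2 1.42.0, RLE factors, library size alone, no filter, 1 CPM in 3 libraries, a replicate block, other sets of libraries and leaving out each library.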

Additional observations from a re-analysis of the deposited data

Results flagged for a closer look

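The response to homozygous knockout differed between HSC and HPC for 8 genes by a test of the difference itself (edgeR, fit of all 18 libraries, adjusted p under 0.05). The populations also differ in donor sex and deposited table, which cannot be told apart from population here. The log2 difference, HSC effect minus HPC effect, was -0.45 ± 0.09 (SE) for Nusap1, -0.48 ± 0.10 for Ccnb1, -0.45 ± 0.10 for Ect2, -0.38 ± 0.09 for Smc4, -0.50 ± 0.12 for Nuf2, -0.35 ± 0.08 for Smc2, -0.36 ± 0.10 for Ccna2 and -0.38 ± 0.11 for Anln. In the fits of single populations, the hom effect in HSC and in HPC was -0.29 ± 0.07 and 0.07 ± 0.06 for Smc4, -0.28 ± 0.06 and 0.05 ± 0.06 for Smc2, -0.36 ± 0.06 and -0.02 ± 0.07 for Ccna2, and -0.30 ± 0.08 and 0.06 ± 0.07 for Anln. Nusap1 and Ccnb1 were called in 12 of 12 fits without a library, Ect2 in 9, Nuf2 in 7, Smc2 and Smc4 in 6, and Ccna2 and Anln in 2. Monocyte markers differed as well, with 6 of 8 lower in the HSC effect. In the single-population fits, all 8 were higher in HPC hom, while in HSC 6 were tested and Ccr2 alone was called, lower. Ly6c2 was under 0.5 CPM in all HSC libraries. Among the other markers, Fcer1a was lower and Thy1 higher in the HSC effect. The part of these markers in the values of the 8 genes was not tested.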

How the results depend on the processing

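RLE factors and a filter of 1 CPM in 3 libraries left every count of called members within 1.5 times of its value, and every called member kept its direction under each alternative run, except Bub1b and Bub3 between the WT populations. For HSC hom against WT (10 called), DESeq2 gave 17, library size alone 5, the fit of all 18 libraries 23 and only the 2 groups compared 4. For HSC het against WT (0), DESeq2 gave 5, no filter 2, all 18 libraries 4 and only the 2 groups 3. No filter gave 1 for HSC hom against het, 1 for HPC hom against WT and 1 for the difference in the het effect, each from 0, and library size alone gave 1 for HPC hom against WT. All 18 libraries gave 13 for HPC het against WT (from 23) and 7 for HPC hom against het (from 13). For the difference in the hom effect (8), DESeq2 gave 13 and library size alone 4. The cause of these shifts was not tested. With 1 library left out, and so fewer samples, the counts ranged from 1 to 11 for HSC hom against WT, 9 to 22 for HPC het against WT, 4 to 17 for HPC hom against het, 2 to 11 for the difference in the hom effect and 25 to 29 between the WT populations, and stayed at 0 elsewhere.

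Some values near 0 or resting on 1 library changed sign. Ncapd2 in HSC hom was -0.000611 without a filter, -0.015 in the fit of all 18 libraries and from -0.045 to 0.050 with a library left out. With a library left out, Spc24 ranged from -0.16 to 0.32 in HSC hom against WT and from -0.057 to 0.43 in the difference of the hom effect, Incenp from -0.011 to 0.12 in HSC hom against het, and Ect2 from -0.030 to 0.054 in HPC het against WT. Between WT populations under library size alone, Bub1b was -0.027, Bub3 -0.00124 and Cdca8 -0.060. Deviations of same-numbered libraries correlated above 0.1 for 2 of 9 pairs in HSC and 4 of 9 in HPC. Those of differently numbered libraries did so for 3 of 18 pairs in each. The share was larger for same-numbered pairs, mainly in HPC, and so few pairs cannot settle whether replicate numbers mark a pairing. A replicate block gave 4 calls for HSC hom against WT and no other count beyond 1.5 times.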
